A study of Mus musculus with 27 samples.

Results

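Nr1h5, Sycp1 and Sike1 lie side by side on mouse chromosome 3, and their RNA was followed in the fetal brain of 3 mouse strains. They are 3 of the 55416 genes in the read-count table and were taken by symbol. The genes were chosen by their read counts in these libraries, Nr1h5 and Sycp1 because these rose in C57BL/6J brains, and Sike1 as their neighbour. Levels, and the changes of all 3 genes between days and strains, are therefore given as a description with no test. The libraries were AKR/J, C57BL/6J and Cav1-null, each on gestational days 12, 15 and 17 (d12, d15 and d17), with 3 libraries per group, 9 groups and 27 libraries. AKR/J is an inbred strain with a short life span and C57BL/6J is the long-lived reference strain. Cav1-null is B6.Cg-Cav1tm1Mls/J, a short-lived congenic strain on a C57BL/6J background in which the gene for caveolin-1 is disrupted in every cell type. No mouse received a treatment, and each library was made from poly-A RNA of a whole fetal brain, with tissue labelled as female. The labels do not say whether the 3 libraries of a group came from separate litters, so the p-values measure the spread between these libraries. Early phase stands for d12 to d15 and late phase for d15 to d17.

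The 3 genes have unrelated roles. Nr1h5 encodes the farnesoid X receptor beta, a ligand-activated transcription factor that in mice responds to lanosterol, an intermediate of cholesterol synthesis. It is a pseudogene in humans. Its relatives are the bile acid receptor Nr1h4 and the oxysterol receptors Nr1h2 and Nr1h3, and these receptors bind DNA together with a retinoid X receptor. Sycp1 encodes the transverse filament of the synaptonemal complex, the protein zipper that holds homologous chromosomes together in meiosis, and is known as a gene of germ cells rather than of brain. Sike1 is expressed in most cell types. Its product binds the kinases TBK1 and IKK-epsilon, which switch on interferon genes, and is also a part of STRIPAK, a complex built around the phosphatase PP2A.

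On build GRCm39, Sycp1 spans chr3:102725709-102843455 on the minus strand and has 33 exons, Nr1h5 spans chr3:102846830-102871449 on the minus strand and has 11 exons, and Sike1 spans chr3:102902892-102915775 on the plus strand and has 5 exons. Their identifiers are ENSMUSG00000027855, ENSMUSG00000048938 and ENSMUSG00000027854. Sycp1 and Nr1h5 are read in the same direction, Nr1h5 first, and the start of Sike1 faces away from that of Nr1h5. The bases upstream of Sycp1 and Nr1h5 are shown because these are the genes whose reads appeared and disappeared between libraries. They are the 250 bases before each annotated start, 5′ to 3′ along the gene, with the E-box letters CACGTG in capitals.
Sycp1, chr3:102843456-102843705, minus strand: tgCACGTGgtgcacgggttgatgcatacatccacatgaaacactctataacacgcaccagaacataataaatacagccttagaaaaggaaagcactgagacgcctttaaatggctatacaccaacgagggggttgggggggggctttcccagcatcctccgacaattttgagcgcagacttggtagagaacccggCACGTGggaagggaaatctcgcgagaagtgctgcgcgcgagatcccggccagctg
Nr1h5, chr3:102871450-102871699, minus strand: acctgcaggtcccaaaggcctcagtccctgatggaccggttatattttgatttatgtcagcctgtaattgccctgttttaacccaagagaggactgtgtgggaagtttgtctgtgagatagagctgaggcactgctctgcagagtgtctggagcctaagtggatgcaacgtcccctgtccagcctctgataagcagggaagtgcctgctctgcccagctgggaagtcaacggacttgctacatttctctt

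Sycp1 has 15 CpG dinucleotides in this window, Nr1h5 has 3 and Sike1 has 4, beside a median of 6 over 21611 promoters of the annotation. The letters CACGTG, a palindrome, stand at -248 and -55 from the start of Sycp1 and are found in 5.72% of all promoters of that length. Searched on both strands, TATAAA (12.5% of promoters), GGGCGG (30%), AGGTCA (13.8%) and TGACG (16.3%) were not found in the windows of the 3 genes, nor was CACGTG in those of Nr1h5 and Sike1. AGGTCA is the half-site to which many nuclear receptors bind and CACGTG an E-box.

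The libraries held 26363697 to 39759702 reads assigned to genes, with a median of 29700746, and no pair of libraries was identical. Cav1 reached at most 0.551 CPM (reads per 1000000 reads of the library) in the Cav1-null libraries and 6.36 to 43.0 CPM in the others. Xist, which is transcribed from the silenced X chromosome of females, had 103 reads in AKR/J d15 replicate 3 and 121 in Cav1-null d12 replicate 2 but at least 53005 in the other 25 libraries, so these 2 libraries went against the label of sex. The 8 neural markers summed to 1712 to 2427 CPM on d12 in AKR/J and to 3951 to 6584 CPM in the other 24. The 10 erythroid markers, most of them hemoglobin genes, summed to 35612 to 136171 CPM there and to 621 to 19329 CPM elsewhere. The 8 germ cell markers summed to 3.60 to 13 CPM over all 27 libraries, and their defining members Dazl and Ddx4 were at most 1.72 and 3.75 CPM.

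The C57BL/6J libraries were not alike in the genes that separate the other strains. A set of 131 of the 55416 genes had levels that differed at least 4-fold and did not overlap between the 9 AKR/J and the 9 Cav1-null libraries. Genes of this set had at least 10 reads in every library of the strain with the higher level. Of these 99 were higher in AKR/J, 32 were higher in Cav1-null, and 88 were pseudogenes. They were chosen after the values were seen, without use of the C57BL/6J libraries, and with Nr1h5, Sycp1, Sike1, Cav1 and Xist left out. Each C57BL/6J library was placed for each gene between the Cav1-null mean, set to 0, and the AKR/J mean, set to 1, of log2(CPM + 0.1). On this logarithmic scale a library above 0.5 can still lie below the whole AKR/J range. Rpsa-ps10, for example, had at most 209 CPM in C57BL/6J, at a position of 0.847, and at least 376 CPM in AKR/J. At 111 of the 131 genes some C57BL/6J libraries lay above 0.5 and others below, 18 genes had all 9 libraries on the Cav1-null side, and 2 had all 9 on the AKR/J side. The share of genes on the AKR/J side ran from 20.6% in C57BL/6J d17 replicate 2 to 46.6% in d15 replicate 1. The libraries thus differed from each other gene by gene, and the genes showed 61 distinct patterns of libraries above and below 0.5. For this reason values are given for each library, and calls against C57BL/6J are given beside those of AKR/J against Cav1-null, which does not use these libraries.

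Nr1h5 was highest in the AKR/J brain on d12 and fell there through both phases, while in C57BL/6J it was nearly absent on d12 and peaked on d15. In AKR/J it had 36.9, 71.4 and 26.5 CPM on d12 (replicates 1 to 3), 8.04, 12.2 and 10.5 CPM on d15, and 1.45, 1.06 and 2.18 CPM on d17. The days did not overlap. The mean of 44.9 ± 23.5 CPM (SD, n = 3) on d12 was 4.38 times that of d15 and 28.7 times that of d17. In log2 fold changes fitted with edgeR, a count model that also rescales libraries for their composition (TMM), this was -2.53 ± 0.26 (SE) early and -2.66 ± 0.30 late.

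In C57BL/6J the same gene had 2, 0 and 7 reads on d12, 45, 57 and 58 reads on d15, and 5, 35 and 21 reads on d17. The d15 mean of 1.40 ± 0.234 CPM was 14.4 times that of d12, and no library of d12 reached the lowest of d15. The log2 fold change was 3.90 ± 0.76 in the early phase and rested on counts of 7 reads and fewer on d12; it was 5.41 without C57BL/6J d12 replicate 3. On d17 the 3 libraries spread from 0.162 to 1.18 CPM around a mean of 0.680 CPM. The highest of them lay just above the lowest of d15 (1.13 CPM), and the late log2 change was -1.21 ± 0.55. The 3 libraries of d12 and d17 replicate 1, with the fewest Nr1h5 reads, are also those with 0 reads of Sycp1. A change of Nr1h5 with the day and a difference between individual C57BL/6J libraries cannot be told apart.

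A rise of Nr1h5 was not seen in C57BL/6J alone. The Cav1-null libraries held 6, 5 and 5 reads on d12, 6, 2 and 10 on d15, and 17, 17 and 12 on d17. The d17 counts lay above all 6 earlier ones, and the mean of 0.544 ± 0.115 CPM was 2.51 times that of d15. The late log2 change was 1.31 ± 0.59 and was 1.88 without Cav1-null d15 replicate 3. At these levels a library counts a few reads, and the filter on low counts removed Nr1h5 from 2 of the 16 comparisons, both with Cav1-null on d12.

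Set side by side, the AKR/J mean of Nr1h5 was 461 times the C57BL/6J mean on d12, 7.33 times on d15 and 2.30 times on d17. Against Cav1-null the ratios were 262, 47.3 and 2.88. The d12 means of C57BL/6J and Cav1-null came from 2, 0 and 7 reads and from 6, 5 and 5 reads. A few reads thus decide the size of the d12 ratios. In the order of the 9 groups, AKR/J d12, AKR/J d15 and AKR/J d17 came first. From there down, C57BL/6J d15, C57BL/6J d17 and Cav1-null d17 each overlapped the group above, Cav1-null d15 lay apart below Cav1-null d17, and Cav1-null d12 and C57BL/6J d12 overlapped again. Divided by exon length in kilobases, the CPM of Nr1h5 was 15.1 RPKM in AKR/J d12 and 0.0327 RPKM in C57BL/6J d12. Sike1 had 10.3 RPKM in AKR/J d12. This order of the genes rests on the exon lengths used, 2979 bases for Nr1h5 and 10448 for Sike1. Reads across single splice junctions ran the other way there, with a mean of 70.7 for that of Nr1h5 and means of 152 to 187 for those of Sike1.

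The 3 AKR/J d12 libraries with the most Nr1h5 were also those with the fewest neural and the most erythroid reads. Prl8a2, a decidual prolactin, had 398, 77.0 and 16.4 CPM in AKR/J d12 replicates 1 to 3, and at most 2.49 CPM in the C57BL/6J and 0.862 CPM in the Cav1-null libraries. Afp, the alpha-fetoprotein of yolk sac and liver, had 707, 144 and 10.9 CPM. Nr1h5 was highest in replicate 2, Prl8a2 and Afp in replicate 1, and the embryonic globin Hbb-y, at 113531 CPM, in replicate 3. Within this group replicate 2 had the highest neural sum, at 2427 CPM against 1712 and 1793 CPM. Its erythroid sum was the lowest, at 35612 CPM against 69003 and 136171 CPM. The sums of the 10 trophoblast and decidua markers were 43.3 to 567 CPM in AKR/J d12 and 15.0 to 116 CPM elsewhere, and those of the 10 yolk sac and liver markers were 30 to 1179 CPM and 87.0 to 699 CPM. The yolk sac and liver list includes Ttr, which is also in the list of choroid plexus markers, so its sum does not measure yolk sac and liver alone. The part of any of these cell types in the level of Nr1h5 was not tested. In such bulk samples, fewer cells of a type and less RNA per cell cannot be told apart.

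Sycp1 was read in every AKR/J library, in some C57BL/6J libraries and hardly in Cav1-null. AKR/J had 75, 70 and 61 reads on d12, 66, 73 and 39 on d15, and 28, 54 and 68 on d17. The means of 2.23 ± 0.205, 2.0 ± 0.624 and 1.79 ± 0.729 CPM differed by less than their spread on d15 and d17, and the log2 changes were -0.65 ± 0.37 and -0.10 ± 0.40. The early value was -0.16 where libraries were scaled by their totals alone.

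In C57BL/6J, Sycp1 had 0 reads in all 3 libraries of d12, which allows up to 3 reads per library or a mean of 0.0928 CPM. It had 13, 14 and 35 reads on d15, at 0.327, 0.371 and 0.941 CPM. The mean of 0.546 ± 0.343 CPM was at least 5.89-fold higher than d12, taken at 3 reads per library. On d17 the libraries held 0, 221 and 82 reads, which is 0, 7.44 and 2.74 CPM. The d17 mean of 3.39 ± 3.76 CPM had an SD above the mean, since 1 library was empty and another held the most Sycp1 of all 27. The late log2 change of 2.43 ± 1.23 ran from 1.17 to 3.07 when each library was left out in turn.

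Cav1-null libraries had 0 Sycp1 reads on d12, 0, 0 and 2 on d15, and 2, 0 and 4 on d17. The filter on low counts kept Sycp1 in 12 of the 16 comparisons and in neither phase of Cav1-null. On d12 the AKR/J mean was at least 24.1-fold higher than C57BL/6J and at least 23.4-fold higher than Cav1-null at the same floor of 3 reads per library. On d15 it was 3.66 times and on d17 0.528 times the C57BL/6J mean, with the d17 ranges of both strains overlapping. The direction on d17 rested on C57BL/6J d17 replicate 2 at 7.44 CPM, beside 0 and 2.74 CPM in the others of its group. The processed pseudogene Sycp1-ps1, a copy of the gene elsewhere in the genome, had at most 2 reads in any library.

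Sycp1 in C57BL/6J lay outside the AKR/J range of 0.970 to 2.48 CPM in all 9 libraries, with the 3 of d15 and the empty ones below it and the other 2 of d17 above it. The 5 libraries with Sycp1 reads were all 3 of d15 and replicates 2 and 3 of d17. One of the 131 genes separated the 9 libraries, with its position above or below 0.5, as Sycp1 does with reads against none. It was Gm4815 on chromosome 13, with 1, 0 and 0 reads in C57BL/6J on d12, 271, 303 and 523 on d15, and 2, 80 and 129 on d17, beside 187 to 441 reads in AKR/J and 0 to 3 in Cav1-null. The other 4 genes of the set on chromosome 3 separated the libraries in other ways. Rpsa-ps10 had 5613, 15 and 6388 reads in C57BL/6J on d12, 5, 6 and 3783 on d15, and 6, 12 and 12 on d17, with 11330 to 41596 in AKR/J and 13 to 27 in Cav1-null. Gm6505 had 65, 35 and 1 reads on d12, 52, 1 and 113 on d15, and 65, 2 and 46 on d17. For Sycp1 in C57BL/6J, as for Nr1h5, a change with the day and a difference between individual libraries cannot be told apart. The library with the most Sycp1, C57BL/6J d17 replicate 2, also had the highest germ cell sum of all 27, at 13 CPM, against 5.53 and 7.31 CPM in the others of its group. It held 51 reads of Dazl and 96 of Ddx4, beside 16 and 54 in replicate 1, which had 0 reads of Sycp1. The 9 Cav1-null libraries had germ cell sums of 7.71 to 9.91 CPM with 0 to 4 reads of Sycp1, and C57BL/6J d15 had sums of 3.60 to 5.40 CPM with 13 to 35 reads. The part of germ cells in the level of Sycp1 was not tested.

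**Figure D1:**
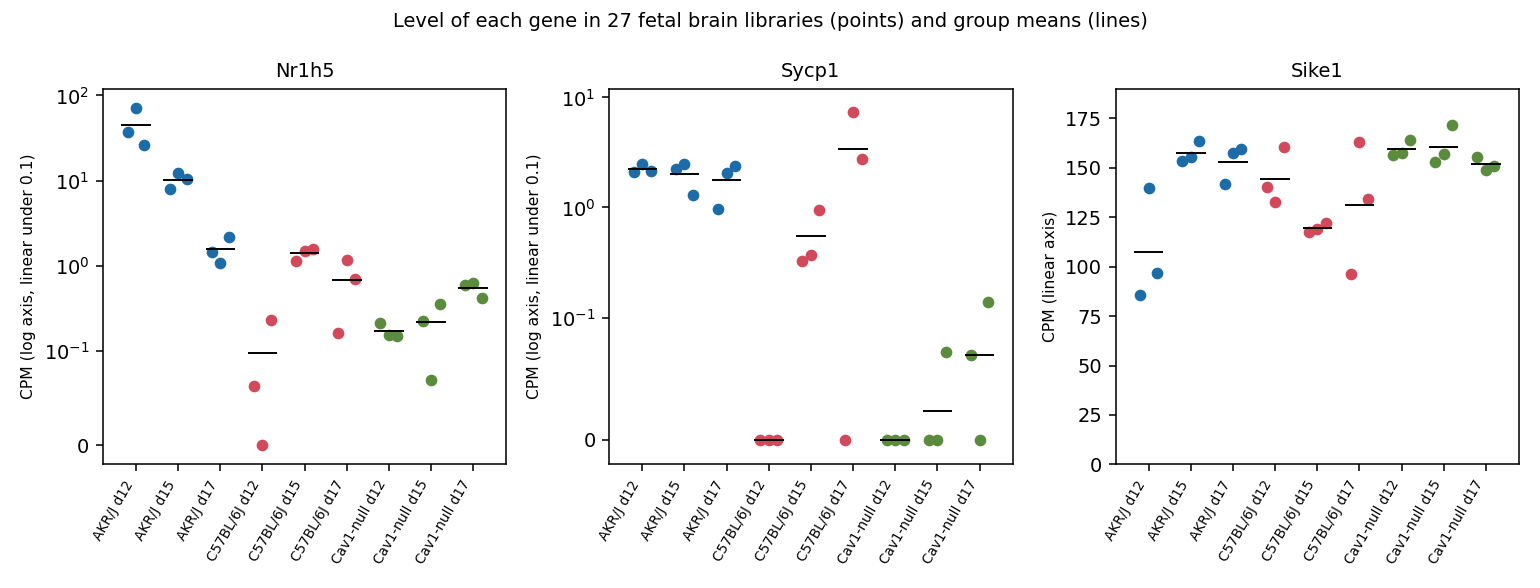
Level in CPM of Nr1h5, Sycp1 and Sike1 by strain and day, with 1 point per library and a line at the group mean. The axes of Nr1h5 and Sycp1 are logarithmic and linear under 0.1 CPM, that of Sike1 is linear. Nr1h5 descends from 44.9 to 1.57 CPM in AKR/J, and the C57BL/6J d17 points of Sycp1 spread from 0 to 7.44 CPM.

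**Figure D2:**
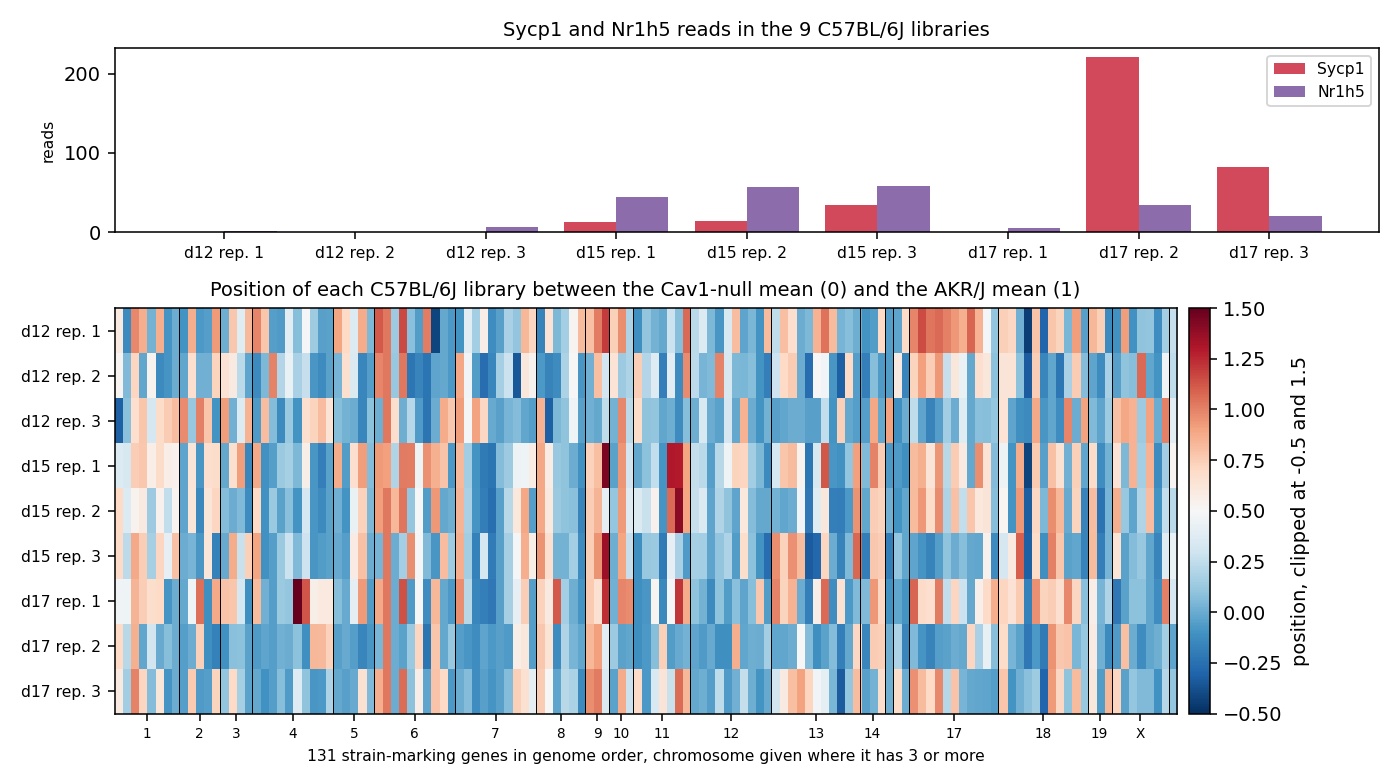
Upper panel: reads of Sycp1 and Nr1h5 (bars) in the 9 C57BL/6J libraries. Lower panel: position of each C57BL/6J library at each of the 131 strain-marking genes in genome order, on a colour scale from the Cav1-null mean (0) to the AKR/J mean (1) of log2(CPM + 0.1), where each library shows its own mixture of both colours.

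Sike1 was steady. Its means lay between 107 CPM in AKR/J d12 and 160 CPM in Cav1-null d15. In AKR/J it had 85.7, 140 and 96.6 CPM on d12, 154 to 163 CPM on d15, and 142 to 159 CPM on d17. In C57BL/6J it had 133 to 160, 118 to 122 and 96.5 to 163 CPM on the 3 days, and in Cav1-null 157 to 164, 153 to 171 and 149 to 155 CPM. The log2 changes between days fitted with edgeR ran from -0.22 ± 0.09 (C57BL/6J, early) to 0.10 ± 0.15 (AKR/J, early). The last value was 0.55 with library totals alone, so the low CPM of AKR/J d12 depends on the scaling. On d15 Sike1 was higher than in C57BL/6J by 0.23 ± 0.06 in AKR/J and by 0.24 ± 0.06 in Cav1-null (log2), and these values share the C57BL/6J libraries. AKR/J against Cav1-null on d15 gave -0.05 ± 0.08.

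The splice-junction table held 7 introns of the 3 genes, all of them annotated, among 55670 junctions. All 4 introns of Sike1 were there, with 4322 to 4811 reads each over 27 libraries, but only 1 of 10 introns of Nr1h5 and 2 of 32 of Sycp1. Junctions with multi-mapped reads, with overhangs under 20 bases or with under 10 reads in every sample had been left out by the authors, so a 0 or an unlisted intron can have had reads. No junction joined one gene to another. The table names other genes beside or instead of these, since it lists the intron of Nr1h5 under Gm22826, a small nuclear RNA gene, and the Sycp1 intron between exons 20 and 21 under the pseudogene Gm33866. Their coordinates are those of Nr1h5 and Sycp1 introns. The intron ends are shown because these junctions are the reads that can be placed on spliced Nr1h5 and Sycp1 RNA, with the first and last 2 intron bases in capitals and 12 bases of exon or 10 of intron before them.
Nr1h5 exon 4 to 5, 5′ end: tgttggcagaatGTaagtgccagt
Nr1h5 exon 4 to 5, 3′ end: gtaatgtcacAGgtttgctcacag
Sycp1 exon 20 to 21, 5′ end: aatgcatttaagGTaagagtaatg
Sycp1 exon 20 to 21, 3′ end: atttccttttAGggatgaactgga
Sycp1 exon 30 to 31, 5′ end: acagttacaaagGTttgttaataa
Sycp1 exon 30 to 31, 3′ end: ctttttacatAGgaatatacagtg

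The intron of Nr1h5 lies at chr3:102856940-102859486 and measures 2547 bases. Its junction had 67, 113 and 32 reads in AKR/J on d12, 5, 15 and 14 on d15, and 4, 1 and 2 on d17. In C57BL/6J it had 0 reads in all 3 libraries of d12, 2, 1 and 2 on d15, and 0, 5 and 0 on d17, and in Cav1-null it had 3 reads in all, on d17. The spliced reads were thus highest in AKR/J d12 as the gene counts were, which is the same RNA counted in another way and no independent measure of it.

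The introns of Sycp1 lie at chr3:102786172-102800853 and chr3:102727999-102748177. Over 27 libraries their junctions had 35 and 33 reads. C57BL/6J d17 replicate 2, the library with the most Sycp1 gene reads, held 13 and 10 of them, and the 3 C57BL/6J d12 libraries held 0. AKR/J libraries had 0 to 5 reads at either junction. No other library had more than 5 reads at either junction, so both junctions passed the filter of 10 reads through this library alone, and its reads there are no finding about it.

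**Figure D3:**
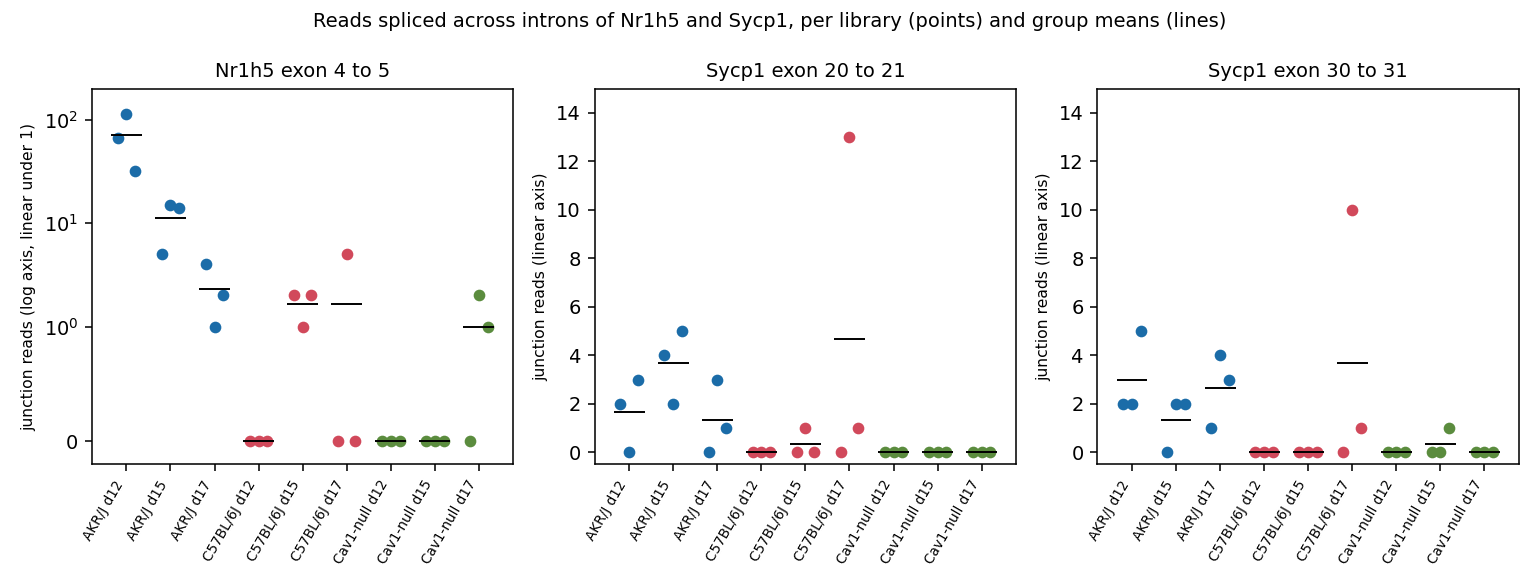
Reads across the intron of Nr1h5 between exons 4 and 5 and the introns of Sycp1 between exons 20 and 21 and exons 30 and 31, per library (points) with group means (lines). The axis of Nr1h5 is logarithmic and linear under 1 read. Nr1h5 junction reads reach 113 in AKR/J d12, and 1 library of C57BL/6J d17 stands above the rest for both junctions of Sycp1.

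The share of Sike1 reads that cross a junction has the read count of the gene as its denominator, by which the genes were chosen, so it is given as a description with no test. Summed over its 4 junctions, it was 0.170 ± 0.0354 junction reads per gene read in AKR/J and 0.151 ± 0.0106 in C57BL/6J (SD, n = 9 each). The difference of 0.0197 lay mostly in d12, where AKR/J had 0.171 to 0.245 and C57BL/6J 0.151 to 0.167. On d15 the ranges were 0.157 to 0.167 and 0.143 to 0.155, and on d17 they were 0.138 to 0.147 and 0.139 to 0.141. Without the d12 libraries the difference was 0.00596. The gene itself was at 85.7 to 139.9 CPM in AKR/J d12 and at 132.9 to 160.4 CPM in C57BL/6J d12, ranges that overlap. These AKR/J d12 libraries are those with the high erythroid sums, and the part of that in the share was not tested. Cav1-null, at 0.151 ± 0.0175, differed from C57BL/6J by 0.000122.

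Over the 27 libraries the genes whose log2(CPM + 1) ran most like each of the 3 were found among 23307 genes, as a description in which strain and day are shared by the points. For Nr1h5 they were Gm20379 (Pearson's r = 0.93, chromosome 13), Gemin6-ps (0.93, chromosome 6), Gm35082 (0.90, chromosome 7), Ifi202b (0.90, chromosome 1) and Gm16409 (0.89, chromosome 14). Ifi202b, an interferon-inducible gene known for its differences between strains, had 1.18 to 9.16 CPM in AKR/J and at most 0.138 CPM in Cav1-null. For Sycp1 they were Gm49705 (0.83, chromosome 16), Gm12191 (0.82, chromosome 11), Gm9392 (0.82, chromosome 7), Rpl34-ps1 (0.81, chromosome 6) and Gm18180 (0.81, chromosome 1). Gm12191 had 39.5 to 418 CPM in AKR/J, 0.188 to 24.3 CPM in C57BL/6J and 0.452 to 0.892 CPM in Cav1-null. None of these 10 genes is on chromosome 3, but the neighbour Bcl2l15 was the 7th for Sycp1 (0.80). For Sike1 they were Cog5 (0.96), Brwd1 (0.96), Ktn1 (0.95), Senp5 (0.94) and Sf3b1 (0.94), which have housekeeping roles such as Golgi transport and splicing. Nr1h5 and Sycp1 had r = 0.63 with each other, and Sike1 had r = -0.38 with Nr1h5 and -0.10 with Sycp1.

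Genes within 1 Mb of the 3 were taken by position alone, 65 in the table, and tested with edgeR's quasi-likelihood test at a Benjamini-Hochberg adjusted p under 0.05 over all genes. Their calls were no more frequent than those of all genes in any comparison between days. In the early phase 4 of 24 tested neighbours were called in AKR/J (28.9% of all genes tested), 3 of 25 in C57BL/6J (14.9%) and 3 of 27 in Cav1-null (23.4%). In the late phase they were 4 of 26 (22.1%), 3 of 25 (13% of all genes tested) and 5 of 26 (27.3%). The 6 calls in C57BL/6J were 0 without d15 replicate 1 or d15 replicate 2, 1 without d15 replicate 3, 3 without d17 replicate 3 and 10 without d12 replicate 2. The 8 in AKR/J were 3 without d15 replicate 1, 4 without d15 replicate 3 or d17 replicate 2, and 5 without d12 replicate 3. The 8 in Cav1-null were 5 without d15 replicate 1 and 15 without d12 replicate 3.

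Nhlh2, Syt6 and Tspan2 were called in the same direction in all 3 strains in at least 1 phase. Nhlh2, a basic helix-loop-helix factor of developing neurons, fell in both phases of the 3 strains. It fell by 1.13 ± 0.32 and 1.04 ± 0.20 on the log2 scale in AKR/J, by 1.29 ± 0.30 and 0.76 ± 0.11 in C57BL/6J, and by 1.05 ± 0.11 and 0.86 ± 0.08 in Cav1-null. Syt6, a synaptotagmin, rose in the early phase by 1.81 ± 0.32, 1.24 ± 0.21 and 1.00 ± 0.13 (log2; AKR/J, then C57BL/6J, then Cav1-null), and in Cav1-null it also rose by 0.50 ± 0.11 in the late phase. Tspan2, a tetraspanin of oligodendrocytes and the named gene nearest to Sycp1 on its left, rose in the late phase by 0.48 ± 0.12, 0.74 ± 0.15 and 0.57 ± 0.10. Mab21l3 fell late in AKR/J by 2.48 ± 0.61 and in C57BL/6J by 1.80 ± 0.42, and early in Cav1-null by 2.01 ± 0.56, at levels of at most 2.29 CPM. Smaller falls passed the test for Phtf1 in the early phase of C57BL/6J (-0.54 ± 0.14) and the late phase of Cav1-null (-0.26 ± 0.07), for Hipk1 late in AKR/J (-0.29 ± 0.09), and for Bcas2 in the late phase of Cav1-null (-0.20 ± 0.07).

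An interaction term of strain and day was fitted to test for changes that were unequal between strains. None of the 28, 27, 29 and 28 neighbours tested was called with edgeR for AKR/J early, AKR/J late, Cav1-null early and Cav1-null late against C57BL/6J. Of all genes 0.0711%, 0.00468%, 0.00472% and 0.252% were called. An unadjusted p under 0.05 was reached by 4, 3, 4 and 5 neighbours, and DESeq2 called 0, 0, 0 and 3. Leaving out 1 library gave 4 calls with edgeR in all without AKR/J d12 replicate 2, 2 without C57BL/6J d12 replicate 2 and 5 without C57BL/6J d17 replicate 1.

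Between strains most calls of neighbours fell on d15. Against C57BL/6J on d12, 3 of 25 were called in AKR/J (28.6% of all genes) and 0 of 26 in Cav1-null (0% of all 19475 genes, of which 4309 had an unadjusted p under 0.05). On d15, 7 of 26 were called in AKR/J (41.1%) and 10 of 25 in Cav1-null (58.6%). On d17, 0 of 24 were called in AKR/J (0.742%) and 0 of 25 in Cav1-null (0.0491%). In the 3 comparisons with 0 calls by edgeR, AKR/J on d17 and Cav1-null on d12 and d17, 3, 2 and 2 neighbours had an unadjusted p under 0.05, and DESeq2 called 2, 0 and 0. AKR/J against Cav1-null, without the C57BL/6J libraries, gave 1 of 26 on d12 (19.6%), 4 of 26 on d15 (19.3%) and 4 of 25 on d17 (12.4%). The 10 calls of AKR/J against C57BL/6J over the 3 days were 6 without AKR/J d15 replicate 1 or C57BL/6J d15 replicate 2.

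The d15 differences went in the same direction in both strains for 5 neighbours called in both, Bcas2, Rsbn1, Hipk1, Trim33 and Syt6, and these comparisons share the 3 C57BL/6J d15 libraries. Bcas2, a splicing factor gene, was higher than in C57BL/6J by 0.35 ± 0.06 in AKR/J and 0.55 ± 0.05 in Cav1-null (log2), and Rsbn1 by 0.30 ± 0.08 and 0.38 ± 0.07. Hipk1, a kinase gene, had log2 fold changes of -0.36 ± 0.07 and -0.72 ± 0.05, Trim33 of -0.25 ± 0.07 and -0.39 ± 0.06, and Syt6 of -0.84 ± 0.15 and -0.61 ± 0.08. Between AKR/J and Cav1-null on that day Bcas2 (-0.24 ± 0.07) and Hipk1 (0.32 ± 0.08) were called, while Rsbn1, Trim33 and Syt6, at -0.13 ± 0.10, 0.09 ± 0.09 and -0.27 ± 0.14, were not. The fitted log2 fold changes of Nr1h5 on that day were 2.71 ± 0.24 for AKR/J and -2.85 ± 0.47 for Cav1-null. Bcl2l15, 0.9 Mb to the right and named after its values were seen, was higher in AKR/J than in C57BL/6J on d12 by 1.92 ± 0.50 (adjusted p = 0.0244) and than in Cav1-null by 1.47 ± 0.42 (adjusted p = 0.0411, edgeR). On d15 and d17 it was not called in AKR/J against C57BL/6J (0.38 ± 0.25 and -0.03 ± 0.43) or against Cav1-null (0.59 ± 0.27 and 0.97 ± 0.30).

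**Figure D4:**
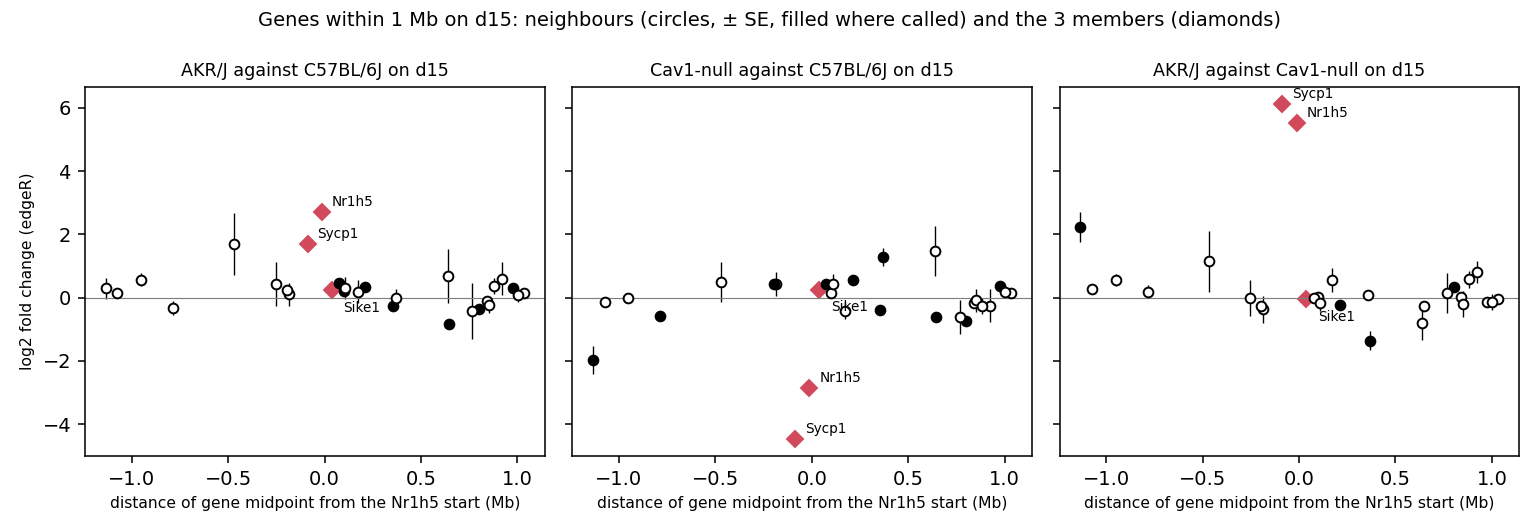
Log2 fold change on d15 (vertical axis) of AKR/J against C57BL/6J, Cav1-null against C57BL/6J and AKR/J against Cav1-null (panels) for the genes within 1 Mb, by the distance of the gene's midpoint from the start of Nr1h5 in Mb (horizontal axis). Circles are neighbours with the SE, filled where called, and diamonds are Nr1h5, Sycp1 and Sike1. Nr1h5 lies at 2.71 in AKR/J and at -2.85 in Cav1-null, and it was chosen by its counts.

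Of the nuclear receptor and sterol list, with 38 genes in the table, 50 calls were made over the 6 comparisons of days and 53 over the 6 of strains against C57BL/6J. Between days 7 of 32, 6 of 31 and 9 of 31 tested genes were called in the early phase (AKR/J, then C57BL/6J, then Cav1-null), and 11, 3 and 14 of 31 in the late phase. Of all genes tested 28.9%, 14.9% and 23.4% were called early and 22.1%, 13% and 27.3% late. Rxrg, a retinoid X receptor, rose in both phases of the 3 strains. It went from 0.280 to 0.741 CPM on d12 to 15.4 to 17.3 CPM on d17 in AKR/J, with log2 changes of 3.02 ± 0.40 and 1.62 ± 0.20. In C57BL/6J the changes were 1.65 ± 0.35 and 1.04 ± 0.28, and in Cav1-null they were 1.69 ± 0.19 and 1.08 ± 0.16. Rxra, the retinoid X receptor of many tissues, fell late in AKR/J by 1.05 ± 0.19 and early in Cav1-null by 1.04 ± 0.17. Of the relatives of Nr1h5, Nr1h2 was read in all libraries at 34.0 to 77.5 CPM and fell by 0.45 ± 0.09 early in C57BL/6J and, in the late phase, by 0.26 ± 0.08 in AKR/J and by 0.50 ± 0.08 in Cav1-null. Nr1h3 had 1.17 to 3.19 CPM and passed no test, with 0 calls by edgeR in the 19 comparisons. Nr1h4 was near absent at 0 to 0.951 CPM and was removed by the filter.

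On d15 the list was mostly lower in AKR/J and Cav1-null than in C57BL/6J, with 18 of 31 genes lower and 2 higher in AKR/J and 22 lower and 3 higher in Cav1-null. Of all genes tested, 22.3% and 31.8% were called lower there. The median log2 fold changes were -0.41 and -0.52, beside 0.06 and 0.03 over all genes. Both comparisons share the 3 C57BL/6J d15 libraries, whose marker sums lay apart. Erythroid markers summed to 739 to 993 CPM there. AKR/J d15 had 2154 to 3321 CPM, and Cav1-null d15 had 3107 to 3852 CPM. Neural sums were higher in C57BL/6J d15, at 6066 to 6584 CPM. AKR/J d15 had 4304 to 5877 CPM, and Cav1-null d15 had 5676 to 5858 CPM. The part of neural and erythroid cells in the shift of this list was not tested. Srebf2, the factor that drives cholesterol synthesis, had log2 fold changes of -1.20 ± 0.14 in AKR/J and -1.74 ± 0.07 in Cav1-null, and of 0.50 ± 0.14 between AKR/J and Cav1-null. Between AKR/J and Cav1-null, 3 of 32 were called on d12, 7 of 32 on d15 and 7 of 31 on d17, beside 19.6%, 19.3% and 12.4% of all genes. On d12, 8 of 32 were called in AKR/J, all lower than in C57BL/6J (14.1% of all genes), and 0 of 32 in Cav1-null, where 14 had an unadjusted p under 0.05 and DESeq2 called 10. On d17 edgeR called 0 of 31 in either strain, with 10 and 5 at an unadjusted p under 0.05 and 0 and 0 by DESeq2.

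The meiosis list includes the partners that build the synaptonemal complex with Sycp1. The list held 39 genes in the table, and 18 to 23 passed the filter on low counts. Sycp2, of the lateral element, had 0.895 to 8.82 CPM and rose by 1.04 ± 0.28 and 0.99 ± 0.25 in the early phase of C57BL/6J and Cav1-null. Sycp3, its lateral partner, had 0.162 to 1.14 CPM and passed no test. Of the central element, Syce2 had 8.47 to 30.3 CPM and fell in the early phase by 1.55 ± 0.31 in AKR/J and 0.69 ± 0.14 in C57BL/6J, while Syce1, Syce3 and Tex12 had at most 14, 2 and 10 reads in any library. C57BL/6J d17 replicate 2, with 221 reads of Sycp1, had the highest Sycp2 of all 27 libraries at 8.82 CPM and the highest Sycp3 of its strain, at 0.943 CPM against 0.162 and 0.200 CPM in the others of its group.

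Between days 25 calls were made over the list, 3 to 6 in each comparison or 13.6% to 26.1% of the genes tested, beside 13% to 28.9% of all genes. Rad21l, a meiotic cohesin subunit, rose by 3.48 ± 0.65 (log2) in the late phase of C57BL/6J, from 3, 2 and 3 reads on d15 to 18, 50 and 14 on d17. The 50 reads, the most of all 27 libraries, were again in replicate 2. Between strains 21 calls were made against C57BL/6J, 10 of them on d15 in Cav1-null. These 10 of the 22 tested, or 45.5%, were all higher, beside 58.6% of all genes called there and 26.8% called higher. On d12 and d17 edgeR called 0 of 21 and 0 of 23 in Cav1-null, with 4 and 3 at an unadjusted p under 0.05 and 0 and 0 by DESeq2. In AKR/J against C57BL/6J it called 4 of 18, 6 of 22 and 1 of 23 on d12, d15 and d17 (28.6%, 41.1% and 0.742% of all genes), and in AKR/J against Cav1-null 4, 7 and 5 of 23 (19.6%, 19.3% and 12.4%). Rec8, another cohesin subunit, was one of the 32 strain-marking genes higher in Cav1-null. It had 0 to 71 reads in AKR/J, 268 to 651 in C57BL/6J and 242 to 384 in Cav1-null, with log2 fold changes of -3.26 ± 0.93, -4.20 ± 0.33 and -4.64 ± 0.31 between AKR/J and C57BL/6J on d12, d15 and d17. Against Cav1-null it was called on d15 (-3.95 ± 0.25) and d17 (-4.39 ± 0.26), but not on d12 (-2.68 ± 0.92). The 9 C57BL/6J libraries lay with Cav1-null at this gene, unlike at Sycp1. Rnf212, a recombination factor, had 91, 38 and 147 reads in AKR/J d12, 0 in all AKR/J libraries of d15 and d17, and at most 17 in any library of the other strains. The erythroid sums of AKR/J d12 replicates 1 to 3 were 69003, 35612 and 136171 CPM, in the same order. In C57BL/6J d12 Rnf212 had 3, 0 and 17 reads beside erythroid sums of 1937, 1783 and 4810 CPM. In AKR/J d17 these sums were 10184, 3629 and 19329 CPM with 0 reads of Rnf212 in all 3 libraries, and the part of erythroid cells in its level was not tested.

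**Figure D5:**
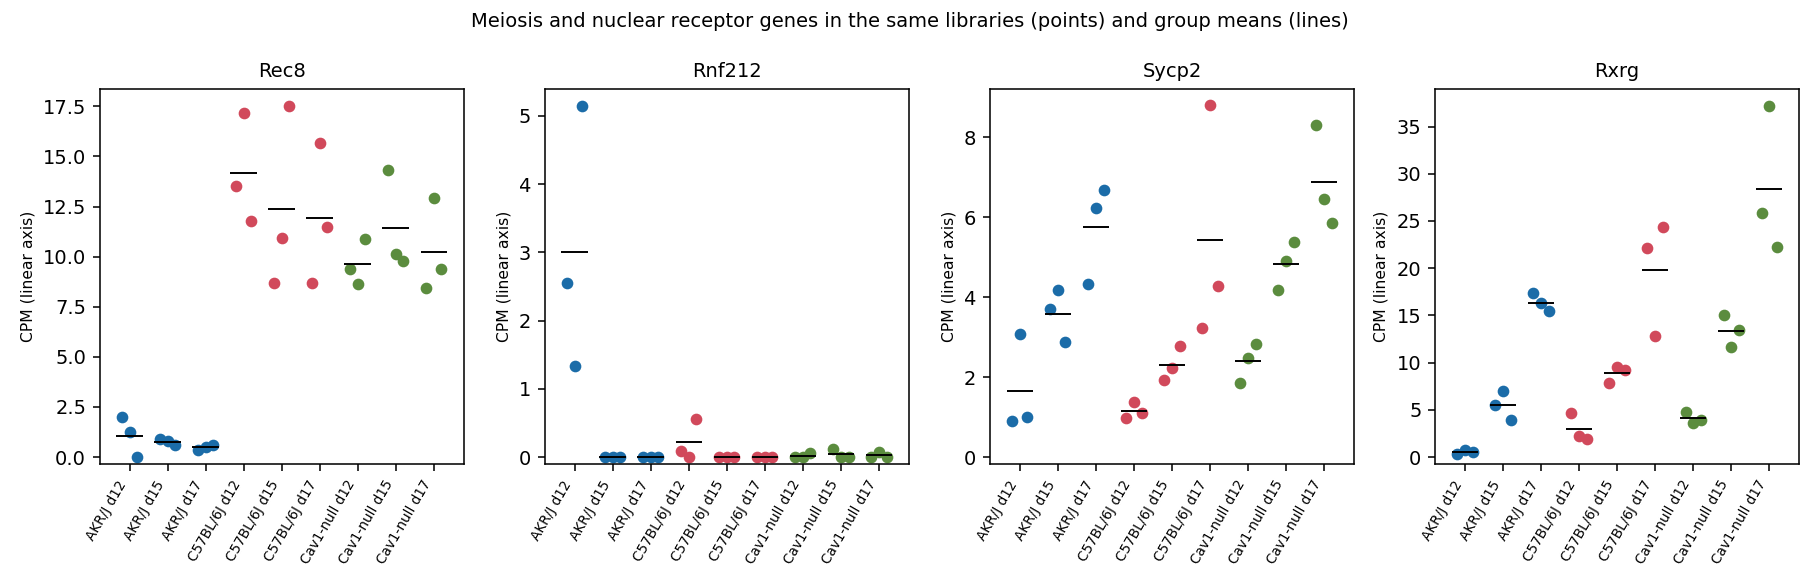
Level in CPM of the meiosis genes Rec8, Rnf212 and Sycp2 and the nuclear receptor gene Rxrg in the same 27 libraries (points) with group means (lines). Rec8 is at most 1.99 CPM in AKR/J and between 8.41 and 17.5 CPM in both other strains, and Rxrg climbs with the day in all 3.

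Of the TBK1 and STRIPAK list, all 32 genes were tested. Between days 10 and 7 were called in AKR/J (early, late), 3 and 2 in C57BL/6J, and 5 and 8 in Cav1-null. Of all genes tested 28.9% and 22.1%, 14.9% and 13%, and 23.4% and 27.3% were called there, so the list was near or below those shares. Tbk1 itself, like Sike1, moved little, with log2 changes between -0.20 ± 0.10 and 0.06 ± 0.16 between days and 0 calls by edgeR in 19 comparisons. Ikbke was called only for AKR/J against Cav1-null on d17 (-1.07 ± 0.27). Fgfr1op2, the paralog of Sike1, fell in the early phase by 0.94 ± 0.20 in AKR/J and 0.65 ± 0.14 in C57BL/6J. Cttnbp2, a STRIPAK member of dendritic spines, rose in the early phase by 2.01 ± 0.24 (AKR/J), 1.06 ± 0.22 (C57BL/6J) and 1.27 ± 0.11 (Cav1-null). The neural sums were also higher on d15, going from 1712 to 2427 CPM on d12 to 4304 to 5877 CPM on d15 in AKR/J, and from 3951 to 5611 CPM to 6066 to 6584 CPM in C57BL/6J. Cttnbp2 had 16.7, 39.2 and 17.2 CPM in AKR/J d12 replicates 1 to 3, highest in replicate 2, which also had the highest neural sum of the 3. Pdcd10 and Mob4 fell in the early phase of AKR/J by 1.84 ± 0.36 and 1.55 ± 0.31, from d12 libraries in which they were higher than in C57BL/6J by 2.28 ± 0.39 and 2.0 ± 0.33. In those d12 libraries Pdcd10 had 137.4, 75.6 and 130.1 CPM and Mob4 270.8, 186 and 268.5 CPM, both lowest in replicate 2, which had the lowest erythroid sum of the 3. The AKR/J erythroid sums went from 35612 to 136171 CPM on d12 to 2154 to 3321 CPM on d15, and the part of neural and erythroid cells in the levels of these 3 genes was not tested. Against C57BL/6J 13, 17 and 0 genes were called in AKR/J on d12, d15 and d17, and 0, 20 and 0 in Cav1-null, beside 28.6%, 41.1% and 0.742% of all genes in AKR/J and 0%, 58.6% and 0.0491% in Cav1-null. In the comparisons with 0 calls by edgeR, 8 had an unadjusted p under 0.05 for AKR/J on d17, and 7 and 4 for Cav1-null on d12 and d17, while DESeq2 called 3, 6 and 0. AKR/J against Cav1-null gave 9, 7 and 7 calls on the 3 days, beside 19.6%, 19.3% and 12.4% of all genes.

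In none of the 3 lists did edgeR call a gene for a strain difference in the change between days. An unadjusted p under 0.05 was reached by 2, 4, 8 and 10 genes of the nuclear receptor list, by 4, 1, 2 and 4 of the meiosis list and by 8, 1, 3 and 6 of the TBK1 and STRIPAK list, in the order AKR/J early, AKR/J late, Cav1-null early and Cav1-null late. DESeq2 called 6 nuclear receptor genes and 1 gene of the TBK1 and STRIPAK list for Cav1-null late, and 2 of the latter for AKR/J early.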

How the data were processed

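RNA of 27 fetal brains was sequenced. Per the labels and the study's methods, the authors checked reads with FastQC, trimmed them with cutadapt and fastp, and mapped them with STAR to GRCm39, a genome derived from C57BL/6J, for all 3 strains; versions, the counting tool and its use of strand are not given in the sources used here. The deposited gene table holds raw read counts per gene, and the deposited junction table holds counts of uniquely mapped reads across each junction, from which the authors removed junctions with multi-mapped reads, with overhangs under 20 bases or with under 10 reads in every sample, and to which they added Ensembl 110 genes. AKR/J reads that differ from this genome, and reads shared by overlapping genes, can be counted too low or in another gene.

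Groups came from the labels, and 0 columns belonged to no sample. A transcript-wise junction was counted once. CPM scales a gene's reads by the library's total in genes; RPKM divides it by the union length of exons in kilobases. A count of 0 was set to 3 reads for a fold, and such limits cover counting error only. Each comparison was fitted on its own libraries with edgeR 4.0.16 in R 4.3.3 (filterByExpr, TMM, quasi-likelihood test, Benjamini-Hochberg adjusted p under 0.05). The SE was taken from the log2 fold change and the F statistic, as the size of the first divided by the root of the second. The scripts were tested on simulated data. DESeq2 1.42.0, other scalings, no filter, 1 model of 27 libraries, a replicate block, windows of 0.5 and 2 Mb and leaving out each library were tried. Python 3.11.15 with scipy 1.17.1 gave permutation tests of the share of Sike1 reads that cross a junction, whose p-values are not given because that share has the gene's own read count as its denominator. Promoter and intron-end sequences were read from GRCm39 with the GENCODE annotation, and positions of 54749 of the 55416 genes came from it by gene ID.

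The members, lists and tests were chosen with earlier results of these data known. Named were the neighbours called in the most comparisons, up to 10, and those next to the 3 genes, the 5 genes most correlated with each of them, and from each list the 3 called genes of largest change and the closest relatives or partners. Six6os1 was not used here, and some genes that this rule names are not reported here. Replicate numbers did not pair the libraries: of 12 comparisons 0 had every pair of same-numbered libraries correlated above 0.1, with values from -0.431 to 0.357.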

Additional observations from a re-analysis of the deposited data

Results flagged for a closer look

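Every library of one strain moved one way between days and every library of another strain the opposite way for 2 of the 3 genes. Neither difference was tested, because the genes were chosen for their changes in these libraries. From d12 to d15 the mean CPM of Nr1h5 went to 0.228 times its value in AKR/J and to 14.4 times in C57BL/6J. From d15 to d17 it went to 0.153 times in AKR/J and to 2.51 times in Cav1-null. For Sike1 the early ratios of mean CPM were 1.47 in AKR/J and 0.828 in C57BL/6J, and the first of these is a log2 change of 0.10 once TMM scaling is applied in place of library totals.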

How the results depend on the processing

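Calls of neighbours are summed over the phases or days of a comparison. Between days there were 8 calls for AKR/J, 6 for C57BL/6J and 8 for Cav1-null. DESeq2 gave 14 in AKR/J and 10 in C57BL/6J. A single model of all 27 libraries gave 12 in C57BL/6J and 3 in Cav1-null. The window of 0.5 Mb gave 2, 1 and 2 and that of 2 Mb gave 16, 10 and 15 in AKR/J, C57BL/6J and Cav1-null, with fewer and more genes tested. Against C57BL/6J they were 10 in AKR/J, with 17 by DESeq2, 5 within 0.5 Mb and 26 within 2 Mb, and 10 in Cav1-null, with 5 within 0.5 Mb and 29 within 2 Mb. For the interaction of strain and day they were 0, with 3 by DESeq2, 1 without a filter and 2 in 1 model of all libraries. With a replicate block, calls between days were 5 in AKR/J and 2 in C57BL/6J, while no other count moved by over 1.5 times; the numbers do not pair the libraries. Leaving out each library in turn gave 3 to 12 calls between days for AKR/J, 0 to 10 for C57BL/6J and 5 to 15 for Cav1-null, 6 to 14 in AKR/J and 10 to 12 in Cav1-null against C57BL/6J, and 0 to 5 for the interaction. The libraries that moved these counts by over 1.5 times are named beside the calls. Chosen after the data were seen, AKR/J against Cav1-null gave 23 calls of the TBK1 and STRIPAK list in place of 50, and 17 of the nuclear receptor list in place of 53, over 3 comparisons instead of 6. The difference in Sike1 junction reads per gene read between AKR/J and C57BL/6J was 0.0197 over all libraries, 0.00596 without d12, and ran from 0.0136 to 0.0259 without single libraries. It was 0.0206, 0.0181 and 0.0204 without C57BL/6J d12 replicate 1, 2 or 3. With 1 junction in place of 4, that of exons 2 to 3, which had the most reads in these 18 libraries, it was 0.00611, on a smaller scale by construction. The difference between Cav1-null and C57BL/6J ran from -0.00378 to 0.00338 without single libraries. Apart from the windows, the smaller number of comparisons and the single junction, the cause of these shifts was not tested. The 5 genes most like Nr1h5, Sycp1 and Sike1 shared 1, 1 and 2 with those by Spearman correlation. Read depth limits Sycp1 and Nr1h5 in C57BL/6J and Cav1-null, where a few reads decide a value.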
